A study of Mus musculus with 26 samples.

Results

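Wild-type (WT) mouse embryonic stem cells given BMP4 for 2 h were compared with WT cells given LDN193189 for 2 h. The comparison holds 4 of the 26 RNA-seq libraries of the series, 2 for each treatment, chosen by their labelled genotype and treatment. BMP4 was used at 10 ng/ml and LDN193189 at 50 nM. All cells were labelled C57BL/6 and were grown on gelatin in serum-containing medium, so the LDN193189 group was also exposed to serum. Further groups of 2 libraries served as a reference. They were WT cells given activin A (50 ng/ml) or SB431542 (10 µM) for 2 h, and HMCES-KO cells given BMP4 or LDN193189 in the same way. Each treated HMCES-KO group held 1 library of each of 2 knockout lines. The labels do not say whether the 2 WT libraries of a treatment came from separate cultures, so p-values reflect variation among these libraries only, part of which could be technical. Untreated cells were not used here, so a difference between BMP4 and LDN193189 could come from either side.

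BMP4 is a secreted ligand that brings type I and type II serine/threonine kinase receptors together. The type I receptor phosphorylates SMAD1 and SMAD5, which enter the nucleus with SMAD4 and bind near target genes. LDN193189 is a small-molecule inhibitor of the kinase of the BMP type I receptors. Activin A and Nodal act through a second set of type I receptors and SMAD2 and SMAD3, and SB431542 inhibits that branch. In mouse embryonic stem cells cultured with serum, BMP signalling is known for keeping the Id genes expressed. ID proteins lack a DNA-binding domain and hold basic helix-loop-helix factors away from DNA.

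The deposited values are TPM, in which a gene's reads are divided by its length and scaled to the same total in every library, and each treatment has 1 table. Treatment and table are thus the same split, and what belongs to a table cannot be told apart from what belongs to its treatment. With BMP4 13468 genes were listed and with LDN193189 13492, and 13185 stood in both tables. Of these, 12070 reached 1 TPM in at least 2 of the 4 libraries and were tested. Reads recovered from the TPM values came to 4349393 and 4555296 for the BMP4 libraries and to 4074088 and 4309629 for the LDN193189 libraries. Embryonic stem cell markers (9 of 9 listed) summed to 24614 and 24520 TPM with BMP4 and to 23770 and 23993 TPM with LDN193189. Of 8 fibroblast markers 3 were listed, summing to 36.8 to 45.1 TPM, most of it from Thy1. The 5 endoderm markers summed to 44.6 to 66.3 TPM, the trophectoderm markers (3 of 4 listed) to 3.64 to 6.45 TPM, the neuroectoderm markers (2 of 3 listed) to 8.27 to 12.4 TPM, and the 2-cell-like markers (1 of 5 listed) to 1.10 to 1.83 TPM. Hmces itself stood at 507 and 531 TPM with BMP4 and at 525 and 530 TPM with LDN193189.

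After 2 h, WT cells given BMP4 carried more Id1, Id2 and Id3 mRNA than WT cells given LDN193189, and few other genes passed the main test. With limma on log2(TPM + 1) and Benjamini-Hochberg adjustment, 5 of 12070 genes (0.0414%) were called at an adjusted p under 0.05. Of these 4 were higher with BMP4 (0.0331%), namely Id1, Id2, Id3 and Med29, and 1 was lower (0.00829%), Mrps16. At an unadjusted p under 0.05 stood 1057 genes (8.76%). Both BMP4 libraries lay above both LDN193189 libraries for 17.0% of genes and below them for 21.0%. The median log2 difference of all genes tested was -0.02.

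**Figure D1:**
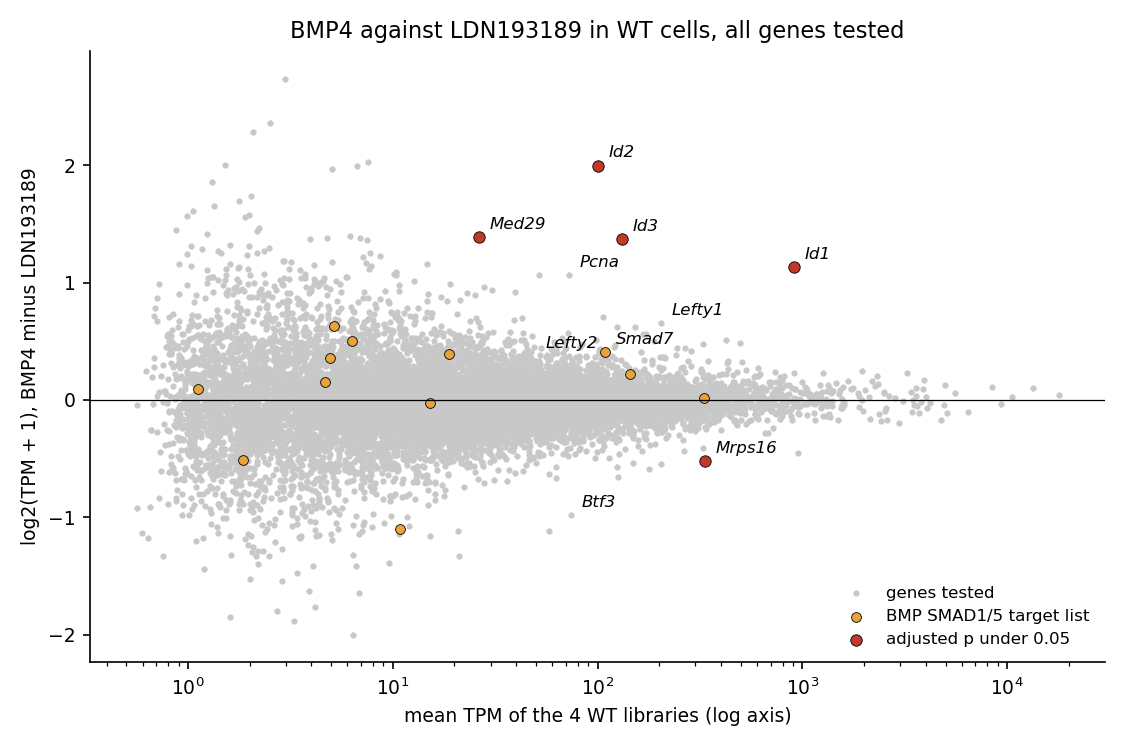
Each point is 1 of the 12070 genes tested, with the mean TPM of the 4 WT libraries on a log axis and the log2(TPM + 1) difference, BMP4 minus LDN193189, on the vertical axis. Red points were called at an adjusted p under 0.05, orange points are the other members of the BMP target list, and Id1, Id2 and Id3 stand clear of genes of like level.

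Id1 was the most abundant of the family. It stood at 1246 and 1263 TPM in the BMP4 libraries and at 599 and 546 TPM in the LDN193189 libraries. The groups did not overlap, and BMP4 was 2.19-fold higher (log2 difference 1.13 ± 0.05 SE, adjusted p = 1.8e-05 by limma). In bulk RNA a change in every cell and a change in the share of cells that express a gene cannot be told apart. These levels rest on 2321 and 2446 recovered reads with BMP4 and on 1038 and 1001 with LDN193189.

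Id2 showed the largest difference among the called genes. It stood at 168 and 156 TPM with BMP4 and at 45.4 and 34.9 TPM with LDN193189. All BMP4 values were above all LDN193189 values, at 4.04-fold (log2 difference 2.00 ± 0.12 SE, adjusted p = 0.00014 by limma). Recovered reads were 343 and 330 with BMP4 and 86 and 70 with LDN193189. Id3 stood at 172 and 208 TPM with BMP4 and at 67.7 and 77.4 TPM with LDN193189. The BMP4 libraries were again the higher ones, at 2.62-fold (log2 difference 1.37 ± 0.11 SE, adjusted p = 0.0016 by limma).

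The fourth member of the family, Id4, was listed at much lower levels. Its values were 21.8 and 20.9 TPM with BMP4 against 16.1 and 16.01 TPM with LDN193189. The libraries did not overlap, but the log2 difference of 0.39 ± 0.16 SE did not pass the test (adjusted p = 0.53 by limma). Id4 therefore went uncalled at a ratio of 1.33, with 40 to 58 recovered reads per library.

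The calls of Id1, Id2 and Id3 held in 19 of the 20 alternative analyses each. The exception was limma without the mean-variance trend, which called 0 genes and gave adjusted p = 0.091 for Id1, 0.084 for Id2 and 0.16 for Id3. Across all 20, the log2 difference lay between 1.06 and 1.20 for Id1, between 1.81 and 2.18 for Id2 and between 1.24 and 1.51 for Id3.

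**Figure D2:**
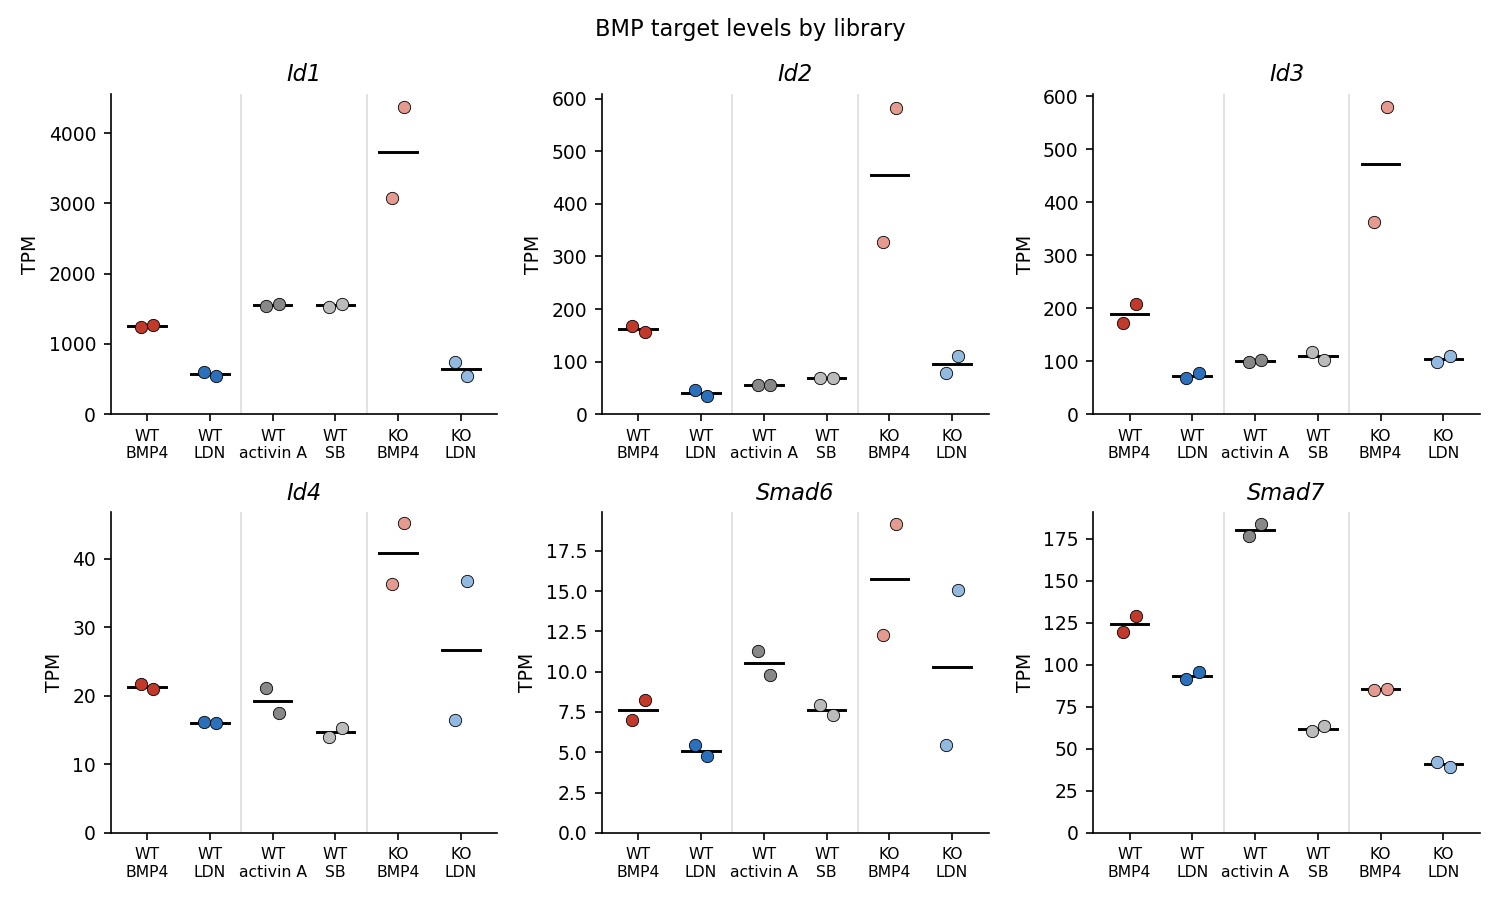
TPM of 6 BMP target genes in each library (points, 2 per group) with the group mean (line), for WT cells given BMP4, LDN193189 (LDN), activin A or SB431542 (SB) and for HMCES-KO (KO) cells given BMP4 or LDN193189. In WT cells all BMP4 points lie above all LDN193189 points in the 6 panels, and the activin A and SB431542 points of Id1, at 1526 to 1568 TPM, lie above its BMP4 points.

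The 250 bases before the RefSeq start sites of Id2, Id3 and Med29 are shown because these genes were called higher with BMP4, and the sequences show where the GC-rich letters reported for SMAD1/5 elements fall. Promoters were read from a RefSeq table of build GRCm38.p6, in which 4 of the 5 called genes had an entry (not Id1). Id2 lies on chromosome 12 at 25093799-25096092 on the minus strand, and its window is chr12:25096093-25096342. Id3 lies on chromosome 4 at 136143822-136145392 on the plus strand, with the window chr4:136143572-136143821. Med29 lies on chromosome 7 at 28385247-28392690 on the minus strand, with the window chr7:28392691-28392940. Each sequence runs 5′ to 3′ along the gene's strand and ends at the base before the start site. Capitals mark GGCGCC, or GGAGCC on either strand, which reads GGCTCC on the other.
Id2: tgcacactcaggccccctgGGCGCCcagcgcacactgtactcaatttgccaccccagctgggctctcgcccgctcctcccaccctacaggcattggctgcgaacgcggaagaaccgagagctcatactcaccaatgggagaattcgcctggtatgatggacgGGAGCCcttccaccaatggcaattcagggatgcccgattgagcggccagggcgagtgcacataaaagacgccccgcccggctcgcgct
Id3: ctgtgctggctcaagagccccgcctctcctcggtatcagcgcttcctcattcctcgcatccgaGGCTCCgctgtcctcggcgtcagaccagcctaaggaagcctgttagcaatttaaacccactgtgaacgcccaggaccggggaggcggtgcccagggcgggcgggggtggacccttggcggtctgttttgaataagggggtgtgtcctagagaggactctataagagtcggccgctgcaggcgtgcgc
Med29: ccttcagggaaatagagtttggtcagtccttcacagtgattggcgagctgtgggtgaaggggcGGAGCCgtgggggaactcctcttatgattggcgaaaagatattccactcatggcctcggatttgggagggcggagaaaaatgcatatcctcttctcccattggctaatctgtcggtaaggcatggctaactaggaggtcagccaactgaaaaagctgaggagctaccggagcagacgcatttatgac

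The Id2 window held 1 GGCGCC, starting at position -231, and 1 GGAGCC, at position -88, counted back from the base before the start site as -1. The Id3 and Med29 windows held 1 GGAGCC or its reverse complement each, both at position -187, and no GGCGCC. Of 32851 promoters of this length 9.59% held GGCGCC and 26.0% held GGAGCC, and among 12290 promoters of genes tested the shares were 16.9% and 35.2%. Uncalled targets held such letters as well. The Smad6 window had 2 of GGAGCC. The Id4 window had 1 GGCGCC, at position -148, and 1 GGAGCC, at position -13, the same numbers as Id2. For Id4, unlike the other windows, bases after the start site were not found in a transcript of the gene. Mrps16, the gene called lower, had GGCGCC too, in both of its overlapping windows. The SMAD4-binding letters GTCT was present in 82.9% of all promoters, Id2, Id3 and Med29 among them, and none of these 3 windows held the palindrome GTCTAGAC, which contains GTCT and stood in 0.167% of promoters. Both strands were searched, and a match describes letters only.

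The other 2 called genes stood in none of the gene lists. Med29, a subunit of the Mediator complex that links transcription factors to RNA polymerase II, stood at 34.0 and 43.0 TPM with BMP4 and at 12.03 and 16.3 TPM with LDN193189. BMP4 was 2.72-fold higher (log2 difference 1.39 ± 0.18 SE, adjusted p = 0.047 by limma), on 23 to 92 recovered reads per library. In the HMCES-KO cells the same gene gave 4.39 and 18.9 TPM with BMP4 against 8.45 and 10.3 TPM with LDN193189, where the groups overlapped. Mrps16, a protein of the small mitochondrial ribosomal subunit, stood at 284 and 265 TPM with BMP4 and at 385 and 402 TPM with LDN193189. The LDN193189 level was 1.44-fold higher (log2 difference, BMP4 minus LDN193189, -0.52 ± 0.07 SE, adjusted p = 0.045 by limma). Both calls were close to the threshold: Med29 was called in 6 of the 20 alternatives, with adjusted p from 0.026 to 0.95, and Mrps16 in 4, with adjusted p from 0.026 to 0.58. Leaving out any 1 of the 8 libraries took both calls away, with adjusted p from 0.058 to 0.31 for Med29 and from 0.056 to 0.24 for Mrps16.

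Across the list of 18 BMP SMAD1/5 targets, 16 were listed and 15 tested, and 3 of the 15 were called higher and 0 lower, beside 0.0331% and 0.00829% of all genes. The list was drawn up with earlier results of these data known. Its median log2 difference was 0.36, beside -0.02 for all genes tested. Both BMP4 libraries were above both LDN193189 libraries for 7 of the 15 and below for 2, beside 17.0% and 21.0% of all genes tested. This was not particular to the BMP targets. Nodal/activin targets stood above for 7 of 14 and below for 0, and general pluripotency genes above for 6 of 10 and below for 1. BMP and GDF ligands stood above for 0 of 14 and below for 5.

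Feedback inhibitors are among the direct targets of the pathway. Smad7, an inhibitory SMAD that blocks signalling of both receptor branches, stood at 119 and 129 TPM with BMP4 and at 91.6 and 95.5 TPM with LDN193189. The groups did not overlap, with a log2 difference of 0.41 ± 0.08 SE that did not pass the test over all genes (adjusted p = 0.23 by limma). Smad6, the inhibitory SMAD that acts mainly on the BMP branch, stood at 6.99 and 8.23 TPM with BMP4 and at 5.43 and 4.74 TPM with LDN193189. Its log2 difference was 0.50 ± 0.22 SE (adjusted p = 0.55 by limma), again without overlap. Bambi, a pseudoreceptor without kinase activity, was level, at 15.0 to 15.6 TPM in all 4 libraries (log2 difference -0.02 ± 0.19 SE).

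The homeobox gene Msx2 had the lowest difference of the target list. It stood at 7.68 and 4.92 TPM with BMP4 and at 20.6 and 9.97 TPM with LDN193189, where the libraries did not overlap but the 2 LDN193189 values were far apart. The log2 difference was -1.10 ± 0.34 SE (adjusted p = 0.41 by limma), on 12 to 45 recovered reads per library. Dusp9, a phosphatase of ERK reported as a BMP target in embryonic stem cells, was listed at 326 to 341 TPM in the 4 libraries, with a log2 difference of 0.01 ± 0.07 SE. Tbx3, a T-box factor of the naive state, stood at 148 and 162 TPM with BMP4 and at 126 and 140 TPM with LDN193189 (log2 difference 0.22 ± 0.11 SE, adjusted p = 0.60 by limma). The other tested targets, Msx1, Hey1, Gata2, Nog and Zfp703, were under 10 TPM in the 4 BMP4 and LDN193189 libraries, with log2 differences from -0.51 to 0.63 and none called.

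**Figure D3:**
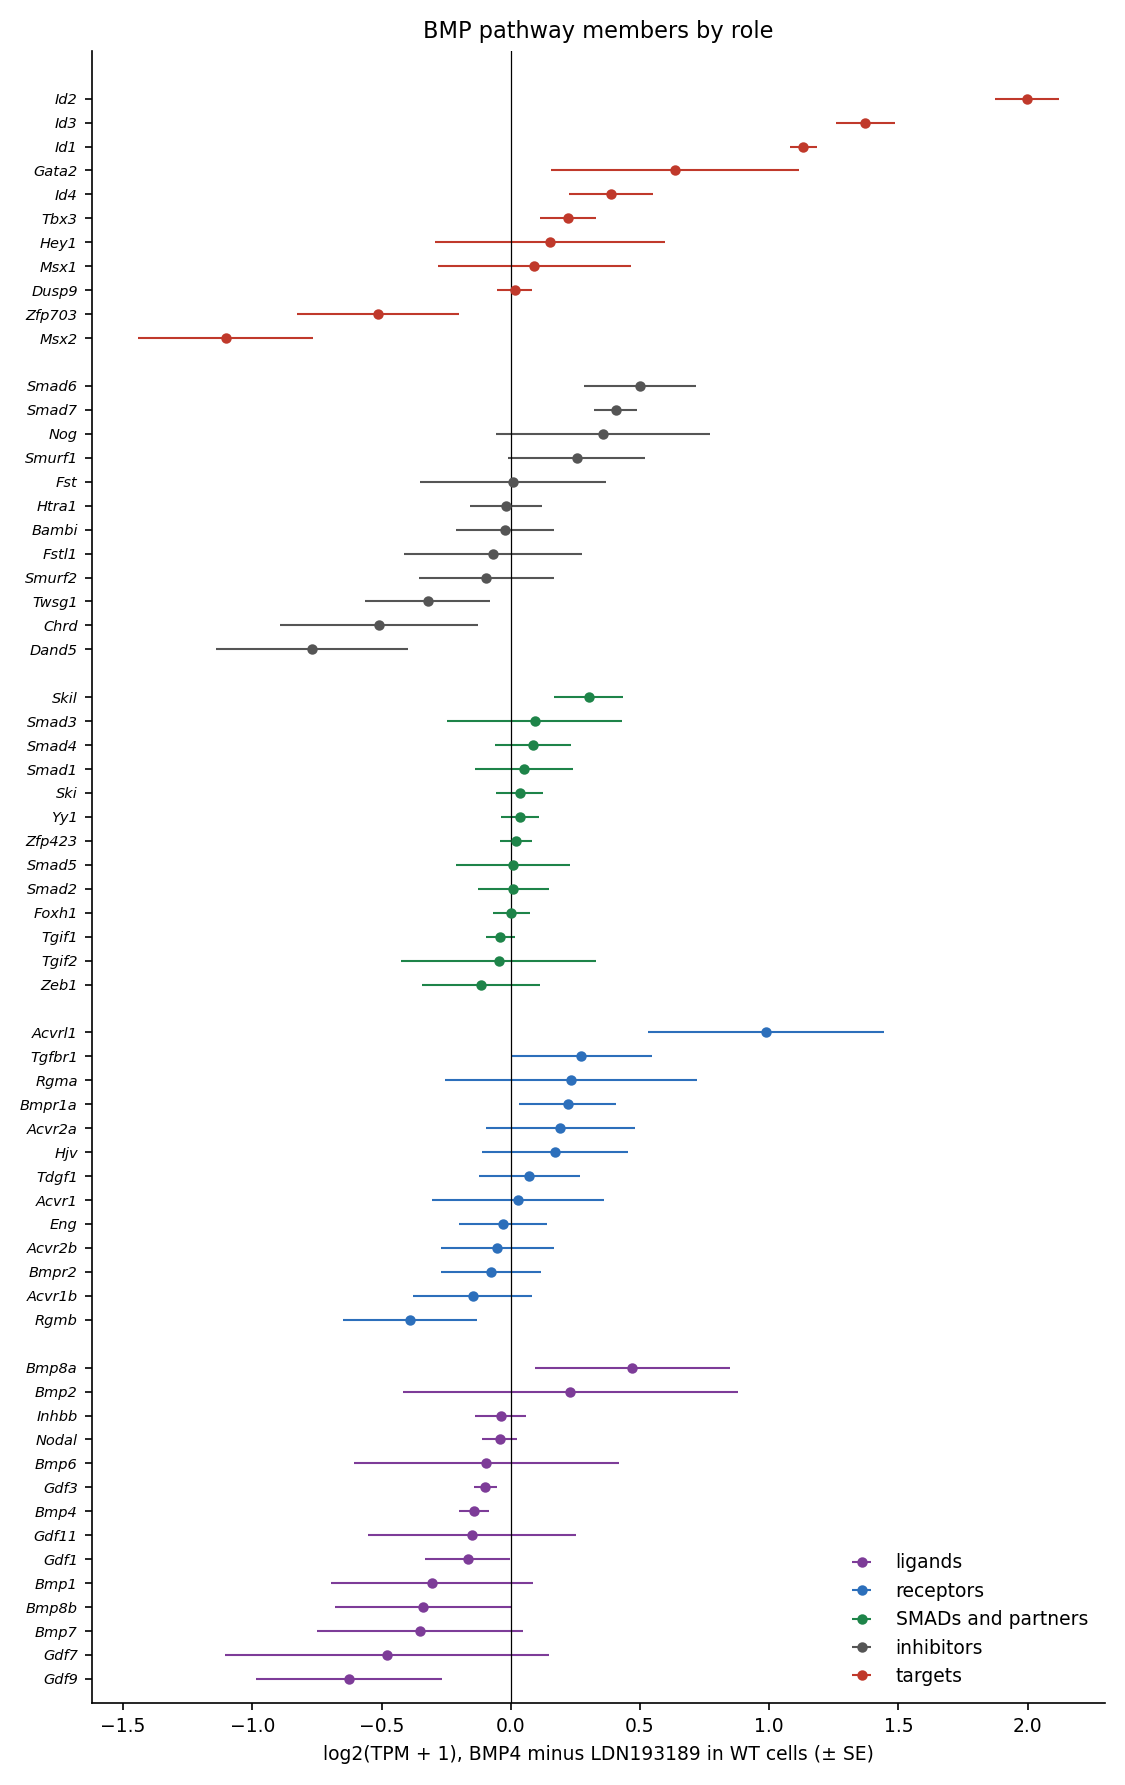
Log2(TPM + 1) difference, BMP4 minus LDN193189 in WT cells, with its SE, for each tested member of 5 lists of the BMP pathway, coloured by role; a gene in 2 lists is drawn once. Id1, Id2 and Id3 lie between 1.13 and 2.00 with short error bars, while no ligand, receptor or SMAD gene was called, at -0.63 to 0.99.

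None of the tested genes for the ligands, receptors and SMADs was called, beside 0.0414% of all genes; at so low a share, 0 calls in a list of this size is no result particular to the list. Of 19 BMP and GDF ligands 14 were tested, with a median log2 difference of -0.15 and a range from -0.63 (Gdf9) to 0.47 (Bmp8a). The cells' own Bmp4 transcript stood at 597 and 540 TPM with added BMP4 and at 636 and 617 TPM with LDN193189 (log2 difference -0.14 ± 0.06 SE, adjusted p = 0.53 by limma). Gdf3, a ligand of the early embryo, stood at 808 and 815 TPM against 878 and 860 TPM, and Nodal at 463 and 509 TPM against 517 and 484 TPM. Bmp4 and Gdf3 values were lower with BMP4 in both libraries, by less than the test could call, and those of Nodal overlapped.

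Of 17 receptors and co-receptors 13 were tested, with 0 called and a median log2 difference of 0.07. The type I receptor gene Bmpr1a stood at 12.3 and 14.2 TPM with BMP4 and at 11.2 TPM in both LDN193189 libraries. The type II receptor gene Bmpr2 stood at 12.8 and 17.5 TPM against 16.4 and 15.3 TPM. The highest difference, 0.99 ± 0.46 SE, belonged to Acvrl1, which was at 1.46 TPM or less in the 4 BMP4 and LDN193189 libraries. Of 16 SMADs and partners 13 were tested, with 0 called, a median of 0.02 and a range from -0.12 (Zeb1) to 0.30 (Skil). Smad1 stood at 14.4 and 11.3 TPM against 11.8 and 12.8 TPM, and Smad5 at 11.5 and 16.3 TPM against 12.2 and 15.2 TPM. Smad4, shared by both branches, stood at 38.1 and 43.9 TPM against 34.1 and 43.5 TPM. In each of these 3 SMAD genes the treatments overlapped. Of 21 antagonists and intracellular inhibitors 12 were tested, 0 were called, and the median was -0.02; apart from the inhibitory SMADs and Bambi, secreted antagonists such as Chrd, Fst and Twsg1 were under 20 TPM in these 4 libraries.

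Targets of the other branch were also examined, because 2 of them came close to the threshold. Of 18 Nodal/activin SMAD2/3 targets 14 were tested, with 0 called and a median log2 difference of 0.16. Both BMP4 libraries were above both LDN193189 libraries for 7 of the 14 and below for 0, beside 17.0% and 21.0% of all genes tested. Lefty1, a secreted inhibitor of Nodal, stood at 235 and 263 TPM with BMP4 and at 160 and 155 TPM with LDN193189 (log2 difference 0.66 ± 0.11 SE, adjusted p = 0.099 by limma). Lefty2, its neighbour on chromosome 1, stood at 143 and 158 TPM against 98.3 and 96.7 TPM (log2 difference 0.62 ± 0.10 SE, adjusted p = 0.087 by limma). The BMP4 libraries were the higher ones for both genes. Limma voom on the recovered reads called both, with adjusted p = 2.4e-05 for Lefty1 and 0.00019 for Lefty2.

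That count-based analysis, added after the data had been seen, called 58 of 11999 genes (0.483%), of which 50 were higher with BMP4 (0.417%) and 8 lower (0.0667%). Id1, Id2, Id3 and Med29 were among the 50, and so were Smad7 (adjusted p = 0.0056) and, chosen after their values were seen, Tcf15 and Pcna. The 50 were not confined to BMP or Nodal/activin targets. Hnrnpa0, Hnrnpa2b1 and Tuba1b, also chosen afterwards, had lower adjusted p by limma voom than Smad7 (9.8e-07, 1.8e-05 and 0.00027). Their log2 differences by voom were 0.19, 0.47 and 0.27. Tcf15, a basic helix-loop-helix factor, stood at 3502 TPM in both BMP4 libraries and at 2987 and 2988 TPM with LDN193189, a log2 difference of 0.23 on log2(TPM + 1). Pcna, the sliding clamp of DNA replication, stood at 98.3 and 97.9 TPM against 42.4 and 50.6 TPM. RefSeq names 2 pseudogene copies of Pcna, which could share its reads. Among the 8 lower genes, Btf3, also chosen after its values were seen, stood at 51.9 and 46.9 TPM with BMP4 and at 97.1 and 99.7 TPM with LDN193189. In HMCES-KO cells the log2 difference, BMP4 minus LDN193189, was -0.01 for Tcf15, 0.27 for Pcna, -0.17 for Btf3 and 1.05 for Smad7. None of these was called there.

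No gene of the pluripotency, lineage, FGF-ERK, Wnt, immediate early, hypoxia, stress or p53 lists was called, again beside 0.0414% of all genes. The general pluripotency genes Pou5f1 (log2 difference 0.06 ± 0.04 SE) and Sox2 (0.06 ± 0.04 SE) and the naive genes Nanog (0.01 ± 0.05 SE) and Esrrb (0.03 ± 0.06 SE) lay within 0.1 of 0. Klf4 stood at 761 and 732 TPM with BMP4 against 728 and 710 TPM with LDN193189. The median of the 16 naive genes was -0.04 and that of the 10 general pluripotency genes 0.06. Not all members were level. The naive genes ranged from -0.99 (Dppa3, on 3 to 13 recovered reads per library) to 0.22 (Tbx3), and the general ones from -0.10 (Zscan10) to 0.45 (Dppa4). An unadjusted p under 0.05 by limma was reached by 5 of the 16 and 1 of the 10, beside 8.76% of all genes.

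The primitive streak and mesoderm list had a higher median, 0.35, over 8 tested genes of 14, most of them near the detection limit. Cdx1, a caudal homeobox gene and its most abundant member, stood at 32.0 and 31.5 TPM with BMP4 and at 20.7 and 23.9 TPM with LDN193189 (log2 difference 0.50 ± 0.15 SE, adjusted p = 0.40 by limma). The streak factor T stood at 0.82 to 1.29 TPM and Fgf8 at 0 to 2.66 TPM. Of the 13 tested endoderm genes, Sox7 had the highest difference, at 11.0 and 13.3 TPM against 8.33 and 7.29 TPM (0.57 ± 0.24 SE, adjusted p = 0.53 by limma). The medians were 0.08 for endoderm, 0.03 for neuroectoderm, -0.11 for trophectoderm and 0.06 for germline genes.

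The E proteins that ID proteins bind were examined beside the Id genes. Tcf3 stood at 79.4 and 81.0 TPM with BMP4 against 90.9 and 86.5 TPM with LDN193189 (log2 difference -0.14 ± 0.09 SE). Tcf4 and Tcf12 were under 4 TPM in these 4 libraries, and of the 9 tested genes in the list 0 were called. The FGF-ERK feedback list had a median of 0.01 over 11 genes, with Spry4 at 305 and 293 TPM against 281 and 286 TPM. Of the 12 immediate early genes tested 0 were called, with Egr1 at 43.9 and 45.8 TPM against 39.4 and 50.2 TPM.

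**Figure D4:**
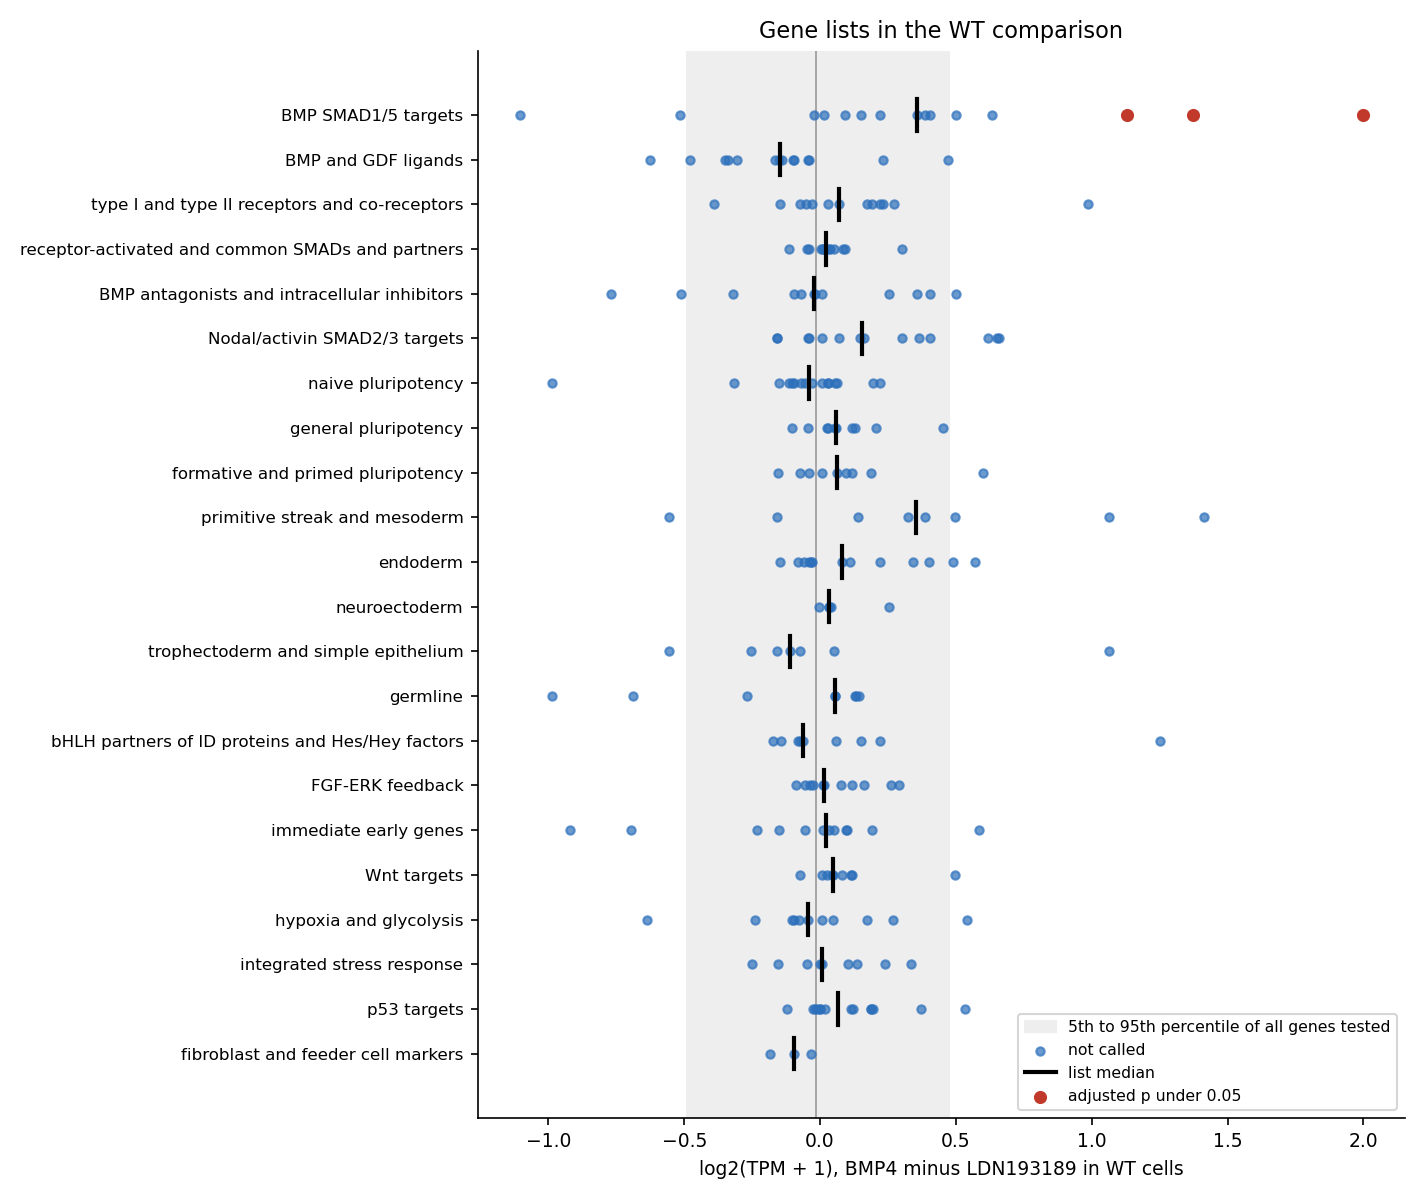
Log2(TPM + 1) difference, BMP4 minus LDN193189 in WT cells, for the tested members of each gene list with at least 3 of them (points), the list median (black bar) and the range from the 5th to the 95th percentile of all genes tested (grey). The only red points, for an adjusted p under 0.05, are Id1, Id2 and Id3 in the BMP target list.

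WT cells given activin A or SB431542 show on which side of other treated cells each level stood. Those libraries came from their own tables and stood apart: Pearson's r between log2(TPM + 1) values was 0.980 to 0.982 between BMP4 and LDN193189 libraries, 0.983 to 0.984 between activin A and SB431542 libraries, and 0.971 to 0.973 across the pairs. BMP4 differed from the mean of the other treatments at 1545 of 12000 genes (12.9%), and LDN193189 at 1365 (11.4%). What separates the pairs of tables and what each treatment did cannot be told apart in these contrasts.

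Against that background Id2 and Id3 lay between the BMP4 and LDN193189 levels in the other cells, and Id1 did not. Id2 stood at 55.8 to 69.6 TPM in the 4 activin A and SB431542 libraries. BMP4 was above them by 1.36 ± 0.11 SE on the log2 scale (adjusted p = 8.1e-05 by limma) and LDN193189 below them, at -0.64 ± 0.11 SE (adjusted p = 0.0048). Id3 stood at 99.2 to 116 TPM there, with BMP4 at 0.84 ± 0.10 SE above (adjusted p = 0.00063 by limma) and LDN193189 at -0.53 ± 0.10 SE (adjusted p = 0.0081). Id1 stood at 1526 to 1568 TPM there. Both treatments were below it, BMP4 at -0.30 ± 0.05 SE (adjusted p = 0.0023 by limma) and LDN193189 at -1.43 ± 0.05 SE (adjusted p = 1.5e-07).

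The ligand minus inhibitor difference was then compared between the branches, using contrasts that share no library. It differed at 5 of 12000 genes (0.0417%). Id1 (difference of differences 1.13 ± 0.07 SE, adjusted p = 0.00025 by limma), Id2 (2.305 ± 0.17 SE) and Id3 (1.49 ± 0.16 SE) had the larger difference for BMP4 against LDN193189. Smad7 (-1.12 ± 0.12 SE, adjusted p = 0.010 by limma) and Lefty1 (-2.79 ± 0.15 SE) had the larger difference for activin A against SB431542. Activin A minus SB431542 itself called 5 of 12000 genes (0.0417%), Lefty1, Lefty2, Smad7, Epha2 and Hes1, all higher with activin A. Smad7 stood at 176 and 184 TPM with activin A and at 60.6 and 63.6 TPM with SB431542, and its BMP4 and LDN193189 values lay between these. Lefty1 stood at 54.9 and 52.2 TPM with activin A and at 4.22 and 3.77 TPM with SB431542, all below its lowest value with LDN193189. With each of the 8 libraries left out in turn, Id1, Id2 and Lefty1 stayed called in all 8 fits, Id3 in 3 and Smad7 in 2. Smad7 stayed called only without the second BMP4 or the second SB431542 library, and Id3 only without the first BMP4, the second LDN193189 or the second SB431542 library. The count of 5 fell to 0 when the spread was estimated over all 16 treated libraries and to 1, Lefty1, without the trend, and rose to 66 with voom.

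**Figure D5:**
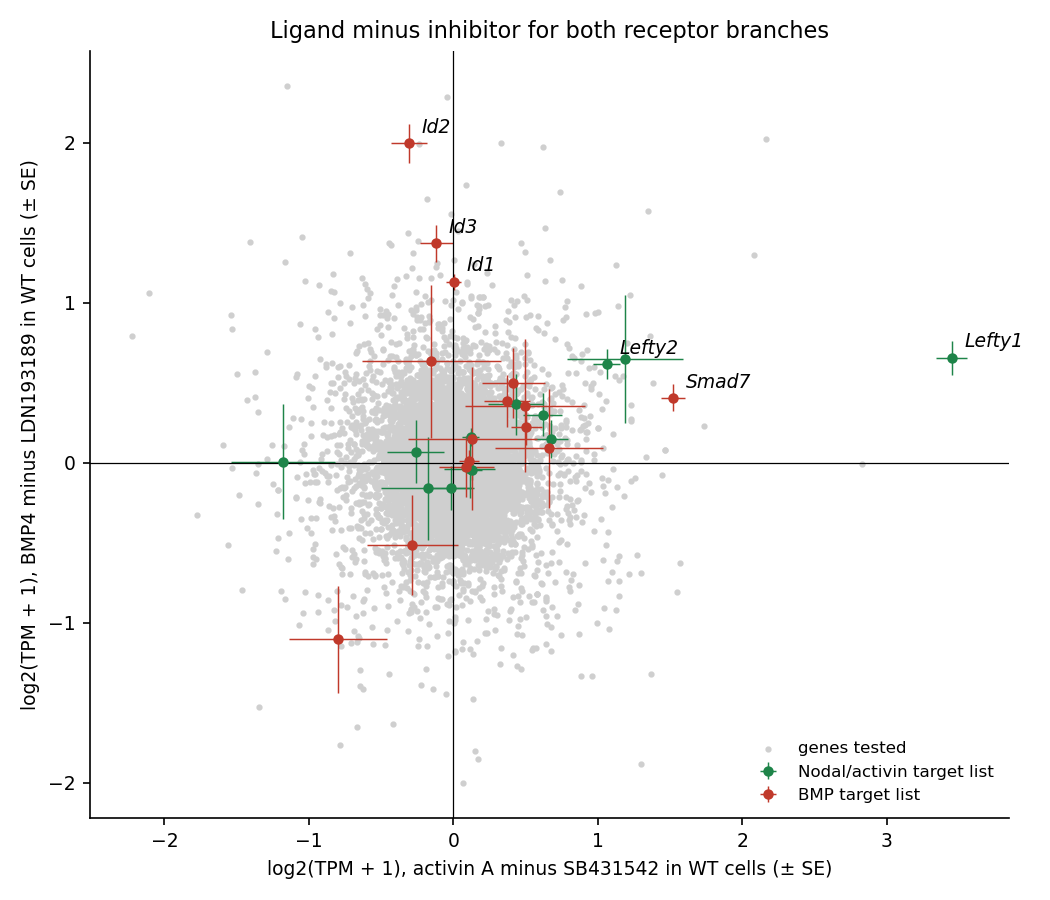
Log2(TPM + 1) difference of activin A minus SB431542 (horizontal axis) and of BMP4 minus LDN193189 (vertical axis) in WT cells, with SE for the members of the BMP (red) and Nodal/activin (green) target lists and all genes tested in grey. Id1, Id2 and Id3 lie high near 0 on the horizontal axis, Lefty1 lies far right at 3.45 and Smad7 at 1.52, and the 2 axes share no library.

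HMCES-KO cells given the same pair of agents provided a further set of libraries from the same tables. Hmces stood at 333 and 177 TPM in the HMCES-KO BMP4 libraries and at 325 and 143 TPM with LDN193189, below every WT library but not at 0. In these cells BMP4 minus LDN193189 called 3 of 12070 genes (0.0249%), and they were Id1, Id2 and Id3. Id1 stood at 3082 and 4370 TPM with BMP4 and at 739 and 545 TPM with LDN193189, a log2 difference of 2.53 ± 0.15 SE (adjusted p = 5.0e-06 by limma). Id2 stood at 328 and 583 TPM against 79.1 and 110 TPM, and Id3 at 363 and 579 TPM against 98.7 and 109 TPM. The BMP4 libraries of the knockout lines were above every WT library for all 3 genes.

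The difference of the responses, WT minus HMCES-KO, was called at 0 of 12070 genes (0%) by limma, with 620 at an unadjusted p under 0.05, and at 0 by voom. It was -1.40 ± 0.22 SE for Id1 (adjusted p = 0.27 by limma), -0.76 ± 0.28 SE for Id3 (adjusted p = 0.93) and -0.22 ± 0.31 SE for Id2. All 3 estimates were larger in HMCES-KO cells, without passing the test. Their SEs rest on the same pooled spread of WT replicates and knockout lines. With 1 HMCES-KO library left out, the Id1 difference was called without the first knockout line's BMP4 library and without its LDN193189 library. Each of these fits left 1 arm with 1 knockout line, so the spread between lines in that arm was not measured. Such fits cannot decide whether the genotypes differ.

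The precision of these libraries depended on level. The median SE of the log2 difference was 0.19 over all genes, 0.37 for genes under 5 TPM, 0.24 from 5 to 20 TPM, 0.14 from 20 to 100 TPM and 0.08 above 100 TPM. A log2 difference of at least 1 in either direction was seen in 118 genes under 5 TPM, and above 100 TPM in 3 genes, Id1, Id2 and Id3. Low-level targets such as Smad6, Msx2, Hey1 and Gata2 were thus measured with several times the error of Id1.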

How the data were processed

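RNA was extracted with a TIANGEN kit and libraries were made with the Illumina TruSeq RNA kit, per the labels' protocols. The submitters' processing notes name FastQC 0.11.5, Bowtie2 2.3.3, SAMtools 1.9, featureCounts 2.0.1, DESeq2 and mm10, without roles. The deposited values are TPM (reads per transcript length, scaled by the authors to a fixed total within each library). The sources used here do not give how genes were chosen for each table or whether counting used strand.

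Each library was rescaled to the same total TPM over the genes in both tables, which kept at least 99.98% of it. Genes with TPM of at least 1 in at least 2 of the 4 libraries were tested with limma 3.58.1 (R 4.3.3, trended prior). Values were taken as log2(TPM + 1), which understates folds of low genes. The fit was also run on simulated data with independent noise and no difference between tables. That run does not bear on the split by table. The 4 activin A and SB431542 WT libraries shared the estimate of spread (4 residual and 5.74 prior degrees of freedom). For 70 genes not in both of their tables, only the libraries that list the gene were used. The HMCES-KO contrasts were fitted over all 16 treated libraries, with a spread per gene shared by both genotypes. P-values were Benjamini-Hochberg adjusted over all genes tested. Folds are ratios of mean TPM.

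For 13180 of 13185 genes, TPM ratios between libraries gave the whole reads behind them (within 0.01 reads plus a small relative tolerance). Replicates of each WT group differed by more than sampling noise (chi-square per degree of freedom 2.79 to 2.89). In the HMCES-KO groups this value was higher, at 10.57 with BMP4, 11.78 with LDN193189, 7.06 with SB431542 and 6.056 with activin A. There the libraries compared came from different knockout lines.

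Alternatives were the samples in the fit, pseudocount, filter, scaling, prior, replicate block, each library left out and, added after the data were seen, limma voom on the recovered reads. The genes named were the called genes without overlap, members of the BMP pathway lists, and up to 4 defining members of each other list; further genes are marked as chosen afterwards. The comparison and the lists were chosen with earlier results of these data known.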

Additional observations from a re-analysis of the deposited data

How the results depend on the processing

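Main counts were 5 genes for BMP4 minus LDN193189, 1545 and 1365 for BMP4 and LDN193189 against the other WT treatments, 5 for the difference between branches and 0 for the difference between genotypes. BMP4 minus LDN193189 called 3 genes with only its own libraries in the fit, 3 with a pseudocount of 0.1, 3 with no filter, 0 without the trend and 58 with voom. TMM scaling called 4 (4 higher, 0 lower), and the scalings moved the median of all genes between -0.02 and 0.01. Leaving out 1 library gave 3 to 5 genes, with Id1, Id2 and Id3 among them each time. With a replicate block it called 3, Id1, Id2 and Id3; the same-numbered WT libraries did not deviate together (r from -0.02 to 0.01), so the block has no basis beyond a shared number. BMP4 against the other WT treatments called 731 over all 16 libraries, 642 without the trend, and 650 to 1475 with 1 library left out; LDN193189 called 582, 555, and 606 to 1247. The difference between branches called 0 over all 16 libraries, 1 without the trend, 66 with voom, and 3 to 5 with 1 library left out; the difference between genotypes called 0 to 8 with 1 library left out. The cause of these shifts was not tested. Where an arm was left with 1 library, that library was assumed to vary like the other groups. For BMP4 minus LDN193189, the 5 called genes kept their direction in all 20 alternatives. Direction gene by gene was not compared for the other contrasts.

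With 2 libraries per treatment and 4074088 to 4555296 recovered reads, a difference in a gene under 5 TPM had a median SE of 0.37 on the log2 scale. Only 1 time point and 1 dose of each agent were measured. Each treatment had its own table, and antisense or overlapping genes could share reads.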
